A study of Mus musculus with 6 samples.

Results

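Retinal ganglion cell marker genes were followed in the retinas of mice with oxygen induced retinopathy (OIR), with and without chronic intermittent hypoxia (CIH). The set holds 30 genes, listed by name for ganglion cell identity, subtype or axon and kept where the total count over the 6 libraries was 10 or more. All 30 passed, the lowest total being 279 for Adcyap1, among 20021 genes that passed of 32285 in the table. None of the 30 differed between the groups at an adjusted p under 0.05, which 0.39% of all genes tested reached. Within OIR-CIH, replicate 1 held the lowest and replicate 2 the highest value for 18 of the 30 genes.

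Bulk RNA sequencing was performed on 3 OIR-CIH and 3 OIR-Norm retinal libraries taken at PN18. All mice were C57BL/6J pups labelled wt and had been held with their mothers in 75% O2 between PN8 and PN13, a model in which capillaries of the central retina are lost and new vessels form after the return to room air. OIR-CIH mice then had 10 h of CIH per day, with 266 cycles of 135 s in which O2 fell from 20.95% to 5% and returned, while OIR-Norm mice received the same gas flow at a constant O2. Retinas without OIR were not analysed here. Total counts lay between 26289905 and 38010151 per library and overlapped between the groups. Each library held both Xist, at 298 to 1653 CPM (counts brought to a common library total), and RNA of Y-linked genes, at 57.3 to 184 CPM in sum. The study states 3 eyes per group, which would be 1 eye per library, and RNA of a single eye would not give both. The values are at odds with that statement, so n counts libraries, and how many animals went into a library is unknown. Xist was at 298 CPM in OIR-Norm replicate 1 and 1653 CPM in OIR-Norm replicate 2. The Y-linked sum was 57.3 to 111 CPM in OIR-CIH and 69.7 to 184 CPM in OIR-Norm. The share of each sex may thus differ between libraries and groups, and the comparison held no term for it. p-values measure only the spread between these libraries, which may in part be technical.

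Retinal ganglion cells are the output neurons of the eye. Their dendrites take up signals from bipolar and amacrine cells, and their axons form the optic nerve. They are few among the cells of the retina, depend on the inner vessels that OIR removes, and are sensitive to ischemia and axon damage. RBPMS marks nearly all of them, the POU4F and ISL transcription factors set and hold their identity, and further factors such as EOMES, TBR1, FOXP2 and SATB1 divide them into types. Several of the 30 genes are also used elsewhere in the retina: Isl1 by bipolar and starburst amacrine cells, and Tubb3, Stmn2, Gap43, Ebf1 and Satb1 by amacrine cells among others. In bulk RNA, a loss of cells and less RNA per cell cannot be told apart.

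For 16 of the 30 genes the RefSeq table of GRCm38.p6 gave at least 1 start site. The 250 bases before the start are shown for Pou4f1, Pou4f2 and Isl2, identity factors that shared the order of the OIR-CIH libraries described below. Each is printed 5′ to 3′ on the strand of its gene, from chr14:104468000-104468249 on the minus strand for Pou4f1, chr8:78436648-78436897 on the minus strand for Pou4f2 and chr9:55540899-55541148 on the plus strand for Isl2. Capitals mark the GC box GGGCGG in either orientation.
Pou4f1: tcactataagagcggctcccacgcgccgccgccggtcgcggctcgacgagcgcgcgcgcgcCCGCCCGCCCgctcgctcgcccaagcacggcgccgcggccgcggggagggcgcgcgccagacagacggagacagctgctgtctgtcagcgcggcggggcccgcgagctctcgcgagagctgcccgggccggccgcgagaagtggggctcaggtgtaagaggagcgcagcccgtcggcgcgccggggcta
Pou4f2: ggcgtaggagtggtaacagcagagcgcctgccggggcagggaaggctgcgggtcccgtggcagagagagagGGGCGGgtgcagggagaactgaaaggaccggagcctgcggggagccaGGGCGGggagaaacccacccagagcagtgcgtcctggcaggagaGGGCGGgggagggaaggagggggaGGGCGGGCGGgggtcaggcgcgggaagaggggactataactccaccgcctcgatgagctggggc
Isl2: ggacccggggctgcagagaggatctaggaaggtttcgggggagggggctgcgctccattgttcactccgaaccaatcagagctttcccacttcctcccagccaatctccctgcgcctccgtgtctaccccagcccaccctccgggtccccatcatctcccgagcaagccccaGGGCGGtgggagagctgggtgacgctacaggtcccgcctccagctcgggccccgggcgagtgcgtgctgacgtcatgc
All 3 were rich in G and C, at 78%, 70.8% and 66.8%. The GC box, a binding motif of the general factor SP1, occurred in 10 of the 16 genes with a table entry and in 35.4% of all 27025 genes of the table. The homeodomain core TAATTA was found before Slc17a6 and Tbr1 and in 5.65% of all genes. The TATA box TATAAA was found before Adcyap1 and in 14.3% of all genes. Both strands were searched in 250 bases, genes with several starts counted once if any start matched, and a match is a match of letters only.

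The level of the markers was compared per kilobase of exon, so that long and short genes could be set side by side. All annotated exons of a gene were merged for its length, so the order depends in part on annotation. Sncg, the gene of gamma-synuclein, was the most abundant at a mean of 128 CPM per kb over the 6 libraries. Nefl, the light neurofilament chain, followed at 105.2 CPM per kb and Tubb3, a neuronal beta-tubulin, at 83.2 CPM per kb. The transcription factors were lower, with Isl1 at 29.0, Pou4f1 at 8.31, Isl2 at 3.37, Pou4f2 at 2.88 and Pou4f3 at 1.95 CPM per kb. At the bottom stood Tbr1 at 0.619, the neuropeptide gene Adcyap1 at 0.403 and Foxp2 at 0.322 CPM per kb. This left a ratio of 398 between the highest and the lowest. Foxp2 has 16346 bases of merged exon, and its mean of 5.27 CPM was above Tbr1 at 3.39 and Adcyap1 at 1.52 CPM. The ranges of neighbours in this order overlapped in 20 of 29 pairs. They were apart for Tubb3 over Thy1, Jam2 over Nefm, Stmn2 over Slc17a6, Nrn1 over Pou4f1, Rbpms over Isl2, Ebf1 over Pou4f3, Opn4 over Irx3, Irx3 over Tbr1 and Tbr1 over Adcyap1. Counts behind these levels reached from 31 (Adcyap1) to 13117 (Nefl) per library, and Pou4f3, Tbr1, Irx3 and Adcyap1 had a library with fewer than 100. The 30 genes together took between 0.195% and 0.237% of the counts of a library.

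**Figure D1:**
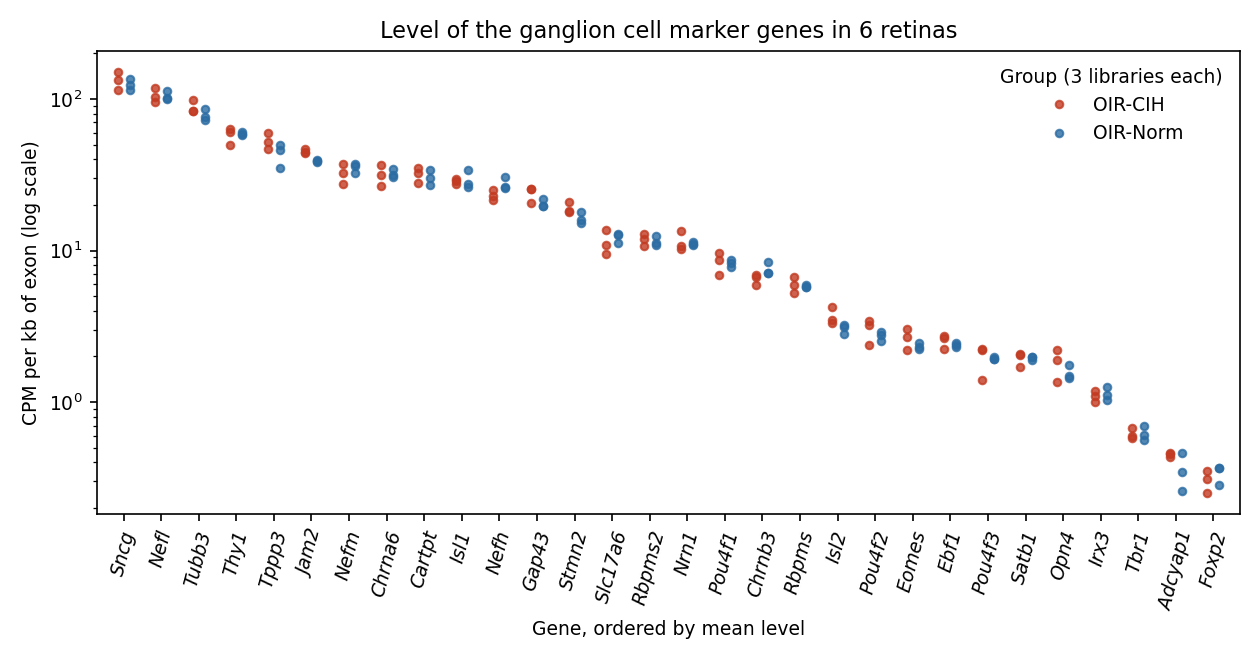
Level of the 30 ganglion cell marker genes in CPM per kb of exon (log axis), ordered by the mean of the 6 libraries, with 1 point per library and the 3 OIR-CIH libraries in red beside the 3 OIR-Norm libraries in blue. Sncg stands at 128 CPM per kb on average and Foxp2 at 0.322, and the points of the groups lie close together for most genes.

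The first question was whether CIH moved these genes in retinas with OIR. Counts were compared with edgeR's quasi-likelihood test over all genes, and a call needed a Benjamini-Hochberg adjusted p under 0.05 and a log2 fold change beyond 0.5, the thresholds of the study. edgeR called 0 of the 30 genes, and at any fold change 0 reached an adjusted p under 0.05, against 0.315% and 0.39% of all genes tested. DESeq2 and limma-voom also called 0 of the 30. The lowest adjusted p was 0.272, for Jam2. Without adjustment, 5 of the 30 genes had a p under 0.05, 16.7% of them, against 13.4% of all genes. The groups did not overlap in CPM for 5 of the 30 genes, again 16.7%, against 18.4% of all genes.

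Fitted log2 fold changes (OIR-CIH over OIR-Norm) lay between -0.25 for Nefh and 0.35 for Adcyap1, with 19 above and 11 below 0. Their median was 0.04, beside -0.01 over all genes. The 95% interval stayed within 0.5 on either side for 25 of the 30 genes, so that a change of the size the study asked for lay outside the interval of these. The other 5 were Isl2, Foxp2, Tppp3, Opn4 and Adcyap1. The median rested on single libraries: it was 0.12, with 22 genes above 0, without OIR-CIH replicate 1, and -0.04, with 13 genes above 0, without OIR-CIH replicate 2.

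**Figure D2:**
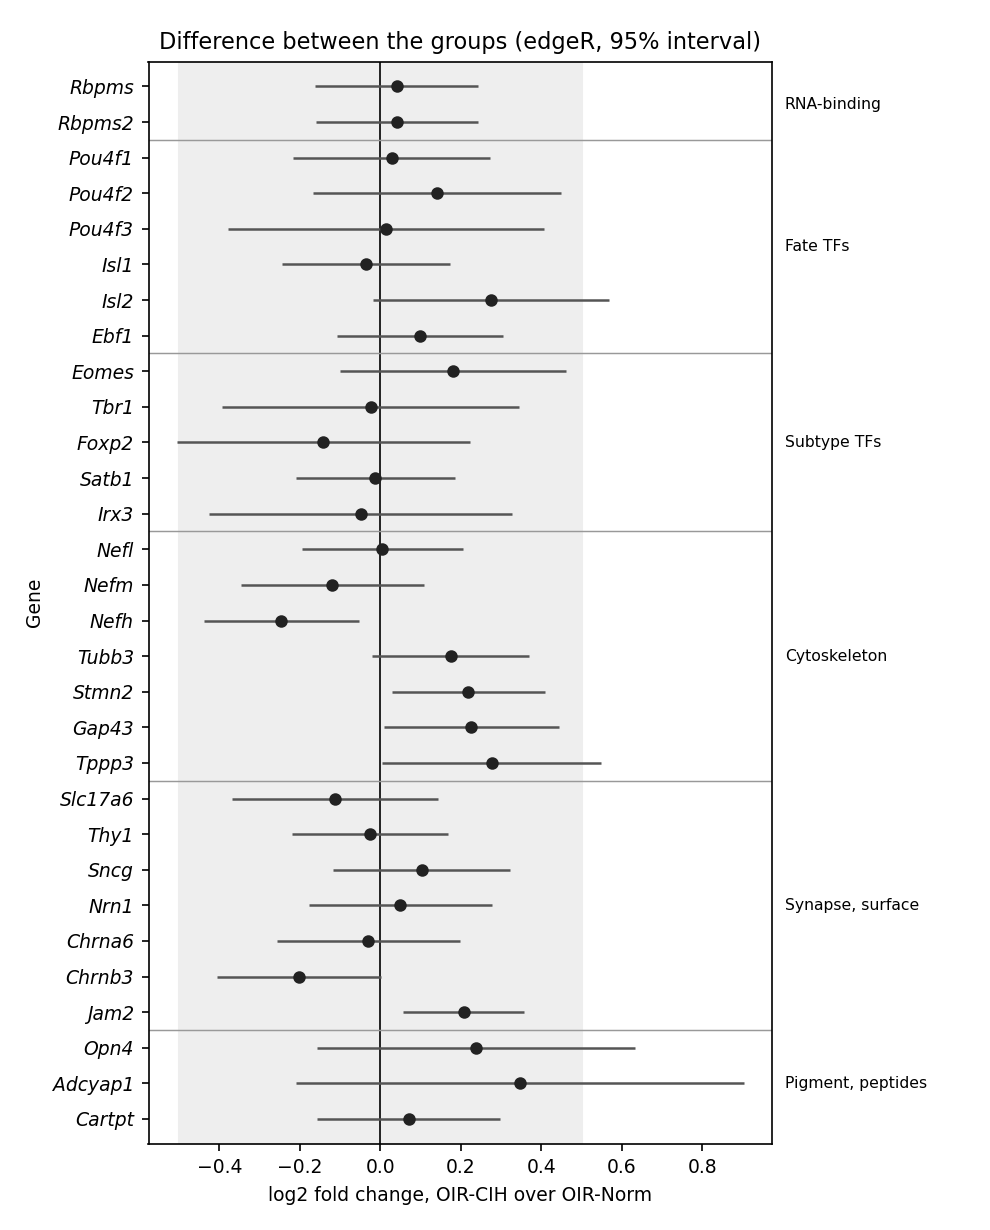
log2 fold change of each marker gene, OIR-CIH over OIR-Norm (points), with its 95% interval from the edgeR fit (lines), grouped by role, and the band within 0.5 of no change in grey. All 30 points lie within the band, and the intervals of Nefh, Stmn2, Gap43, Tppp3 and Jam2 leave out 0 before adjustment for the number of genes tested.

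Rbpms and Rbpms2 encode RNA-binding proteins that are the most used general markers of ganglion cells. Rbpms stood at 34.6, 44.2 and 38.7 CPM in OIR-CIH and at 37.9, 38.8 and 37.6 CPM in OIR-Norm. The OIR-Norm values were nearly the same, while those of OIR-CIH lay on both sides of them. The log2 fold change was 0.04 ± 0.09 (SE, n = 3 per group; edgeR adjusted p = 0.880), with a 95% interval from -0.16 to 0.24. For Rbpms2 it was also 0.04, with means of 29.6 ± 2.5 and 28.8 ± 2.09 CPM (SD, n = 3).

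Among the fate and identity factors, Pou4f1, Pou4f2 and Pou4f3 encode the BRN3 proteins that drive ganglion cell differentiation and survival. Pou4f1 had a mean of 39.2 ± 6.66 CPM in OIR-CIH and of 38.5 ± 1.91 CPM in OIR-Norm (SD, n = 3), Pou4f2 of 9.64 ± 1.77 and 8.80 ± 0.600 CPM and Pou4f3 of 4.67 ± 1.15 and 4.68 ± 0.0805 CPM. Their log2 fold changes were 0.03, 0.14 and 0.01, each smaller than its SE. In all 3 the spread was in OIR-CIH, where replicate 1 was the lowest and replicate 2 the highest of the 6 libraries.

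Isl2, a LIM-homeodomain factor of ganglion cells that project to the opposite side of the brain, was at 7.30, 9.29 and 7.67 CPM in OIR-CIH and at 7.08, 6.14 and 6.82 CPM in OIR-Norm. The OIR-CIH values were all above, by a narrow gap between OIR-CIH replicate 1 and OIR-Norm replicate 1. Its log2 fold change of 0.27 ± 0.13 (SE, n = 3 per group) did not pass the test (edgeR adjusted p = 0.400). Isl1, with the highest mean CPM of these factors and broad use in bipolar cells, was at 114, 118 and 108 CPM in OIR-CIH and at 104, 135 and 109 CPM in OIR-Norm. The groups overlapped, with the highest value in OIR-Norm replicate 2. Ebf1, a helix-loop-helix factor, had means of 24.8 ± 2.54 and 23.2 ± 0.805 CPM (SD, n = 3).

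The CPM of the groups overlapped for all 5 subtype factors. Eomes, which marks intrinsically photosensitive and related ganglion cells, was at 9.10, 12.6 and 11.2 CPM in OIR-CIH and at 10.2, 9.58 and 9.33 CPM in OIR-Norm. OIR-CIH held both the lowest and the highest value, and the log2 fold change was 0.18 ± 0.13 (SE, n = 3 per group; edgeR adjusted p = 0.575). Satb1, a chromatin organizer of direction-selective types, was at 32.2, 39.4 and 39.0 CPM in OIR-CIH and at 36.3, 37.9 and 37.5 CPM in OIR-Norm. Here OIR-CIH replicate 1 alone stood below the other libraries. The log2 fold changes of Tbr1 (-0.02), Foxp2 (-0.14) and Irx3 (-0.05) were each smaller than their SE.

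Neurofilaments are the heteropolymers that set the calibre of large axons, and their 3 chains are among the markers most used for ganglion cells. Nefl was at 322, 399 and 347 CPM in OIR-CIH and at 339, 343 and 383 CPM in OIR-Norm, with a log2 fold change of 0.00 ± 0.09 (SE, n = 3 per group; edgeR adjusted p = 0.992). Nefh, the heavy chain, was at 85.5, 92.0 and 100 CPM in OIR-CIH and at 104.96, 122 and 103 CPM in OIR-Norm. All OIR-CIH values of Nefh were below those of OIR-Norm, with OIR-CIH replicate 3 close to the OIR-Norm values. Its log2 fold change of -0.25 ± 0.09 (SE, n = 3 per group) had a 95% interval from -0.44 to -0.05 and did not pass the test (edgeR adjusted p = 0.296). Nefm, the medium chain, lay between at -0.12 ± 0.10.

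Since the chains are built into the same filament, their ratios within each library were compared, which takes out scaling. The count of Nefh per count of Nefl was 0.266, 0.231 and 0.289 in OIR-CIH and 0.310, 0.356 and 0.269 in OIR-Norm. The groups overlapped, at means of 0.262 ± 0.0297 and 0.312 ± 0.0437 (SD, n = 3; exact two-sided permutation test p = 0.2). The count of Nefm per count of Nefl was 0.494, 0.542 and 0.541 in OIR-CIH and 0.553, 0.613 and 0.559 in OIR-Norm. The OIR-CIH ratios were all below the OIR-Norm ratios, at means of 0.526 ± 0.0271 and 0.575 ± 0.0327 (SD, n = 3; exact two-sided permutation test p = 0.1). A p of 0.1 is the smallest that 3 against 3 libraries allow, so these ratios cannot pass 0.05. The log2 difference was -0.25 for Nefh to Nefl and -0.13 for Nefm to Nefl. With single libraries left out, it lay between -0.35 and -0.15 for Nefh and between -0.16 and -0.08 for Nefm. Both differences were smallest without OIR-Norm replicate 2.

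The remaining cytoskeletal genes had positive log2 fold changes, none past the test. Stmn2, a tubulin-binding protein of growing and regenerating axons, was at 100, 116 and 102 CPM in OIR-CIH and at 84.8, 89.2 and 99.9 CPM in OIR-Norm. The groups did not overlap, but the lowest OIR-CIH value and the highest OIR-Norm value were within 1 CPM of each other. The log2 fold change was 0.22 ± 0.09 (SE, n = 3 per group; edgeR adjusted p = 0.319). Gap43, a growth cone protein, had a log2 fold change of 0.23 ± 0.10 (edgeR adjusted p = 0.357), Tppp3, a tubulin polymerization protein, of 0.28 ± 0.13 (edgeR adjusted p = 0.368) and Tubb3 of 0.17 ± 0.09 (edgeR adjusted p = 0.424). For these 3 the CPM of the groups overlapped, and for Tppp3 OIR-Norm replicate 2, at 64.6 CPM, stood below the other libraries, which ranged from 84.8 to 111 CPM in OIR-CIH and OIR-Norm together.

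Among synaptic and surface proteins, Jam2 had the lowest p of the 30 genes. It encodes a junctional adhesion molecule that marks a direction-selective ganglion cell type and is also known from endothelium. Jam2 was at 282, 267 and 269 CPM in OIR-CIH and at 241, 236 and 232 CPM in OIR-Norm. The groups were clearly apart and each was tight. The log2 fold change was 0.21 ± 0.07 (SE, n = 3 per group; edgeR adjusted p = 0.272), with a 95% interval from 0.06 to 0.36. OIR-CIH replicate 1 held its highest value.

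Chrnb3 and Chrna6 encode subunits of nicotinic acetylcholine receptors. Chrnb3 was at 37.6, 42.9 and 44.1 CPM in OIR-CIH and at 45.3, 53.2 and 45.1 CPM in OIR-Norm, all OIR-CIH values being lower, by less than 1 CPM at the nearest. Its log2 fold change was -0.20 ± 0.09 (SE, n = 3 per group; edgeR adjusted p = 0.373). Chrna6 had a log2 fold change of -0.03 ± 0.10, and the groups overlapped. Slc17a6, the vesicular glutamate transporter VGLUT2 by which ganglion cells load their transmitter, had means of 61.1 ± 11.5 CPM in OIR-CIH and 66.1 ± 5.04 CPM in OIR-Norm (SD, n = 3). Thy1, a surface glycoprotein, had means of 173 ± 20.9 and 176 ± 3.90 CPM, Sncg of 113 ± 15.2 and 106 ± 8.92 CPM and Nrn1, the neurite growth factor neuritin, of 25.8 ± 3.78 and 24.9 ± 0.518 CPM. In each of these 4 genes the spread was larger in OIR-CIH.

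Opn4 encodes melanopsin, the photopigment of intrinsically photosensitive ganglion cells, and Adcyap1 the peptide PACAP that these cells release. Opn4 had means of 5.38 ± 1.25 CPM in OIR-CIH and 4.62 ± 0.503 CPM in OIR-Norm (SD, n = 3) and a log2 fold change of 0.24 ± 0.18 (SE). Adcyap1 was at 1.65, 1.73 and 1.72 CPM in OIR-CIH and at 1.75, 1.30 and 0.974 CPM in OIR-Norm. The OIR-Norm values reached from below to above those of OIR-CIH, on as few as 31 counts in a library. Its log2 fold change of 0.35 ± 0.26 (SE, n = 3 per group; edgeR adjusted p = 0.591) had a 95% interval from -0.21 to 0.90, the widest of the 30 genes. Cartpt, a peptide of direction-selective types, was at 41.4, 35.8 and 44.8 CPM in OIR-CIH and at 43.3, 34.6 and 38.3 CPM in OIR-Norm, and the groups overlapped.

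The markers shared an order over the libraries. OIR-CIH replicate 1 was the lowest of the 6 libraries for 19 of the 30 genes, 63.3% against 19.8% of all genes tested, and OIR-CIH replicate 2 the highest for 17, 56.7% against 14.3%. Within OIR-CIH, both held for 18 genes, 60.0% against 16%. These were Rbpms, Rbpms2, Pou4f1, Pou4f2, Pou4f3, Isl2, Eomes, Satb1, Irx3, Nefl, Nefm, Stmn2, Gap43, Slc17a6, Sncg, Nrn1, Chrna6 and Adcyap1. The ratio of replicate 2 to replicate 1 reached from 1.05 for Adcyap1 to 1.61 for Pou4f3 among them, and its median over all 30 genes was 1.23, beside 1.0 over all genes tested. The SD of log2(CPM + 0.5) was larger in OIR-CIH than in OIR-Norm for 22 of the 30 genes, 73.3% against 45.7% of all genes. This is a description of 3 libraries and carries no test.

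**Figure D3:**
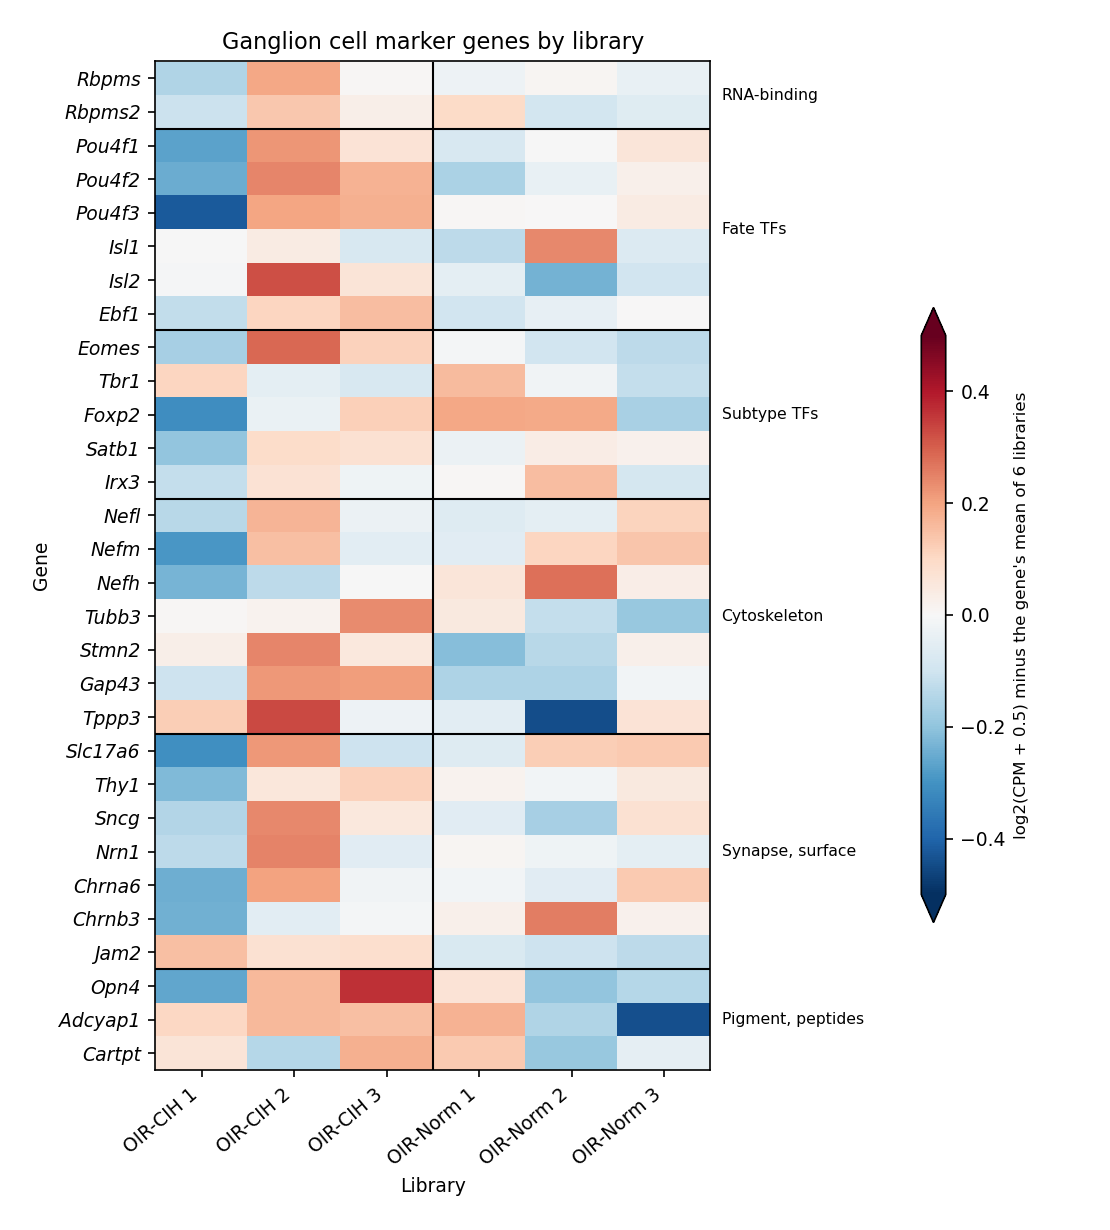
Deviation of each marker gene in each library from the gene's mean over the 6 libraries, on the log2(CPM + 0.5) scale, with genes in rows by role and OIR-CIH libraries left of the vertical line. The column of OIR-CIH replicate 1 is blue (low) and that of replicate 2 red (high) for most genes, while the OIR-Norm columns hold deviations of either sign. The deepest blue cells are Tppp3 in OIR-Norm replicate 2, Adcyap1 in OIR-Norm replicate 3 and Pou4f3 in OIR-CIH replicate 1.

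Markers of other cells were set beside this order, as the median deviation of a library from each gene's mean, on the log2 scale. For the 30 genes it was -0.14, 0.16 and 0.06 in OIR-CIH replicates 1 to 3 and -0.02, -0.04 and -0.01 in OIR-Norm. The rod list of 8 genes stood at 0.18, 0.03 and 0.06 in OIR-CIH and at 0.05, -0.21 and -0.09 in OIR-Norm. All 8 rod genes were lowest in OIR-Norm replicate 2, where the ganglion cell markers stood at -0.04. OIR-CIH replicate 1 was high in rod RNA where it was low in ganglion cell RNA. The endothelial, astrocyte and microglia lists were low there like the ganglion cell markers. They were also negative in OIR-CIH replicate 2, where the ganglion cell markers were high. Endothelial genes stood at -0.36, -0.16 and 0.12 in OIR-CIH replicates 1 to 3, with their lowest value, -0.44, in OIR-Norm replicate 3. Astrocyte genes stood at -0.26, -0.19 and -0.10 in OIR-CIH and at 0.14, 0.37 and 0.03 in OIR-Norm. Microglia genes stood at -0.19, -0.24 and -0.01 in OIR-CIH and at 0.27, 0.20 and -0.01 in OIR-Norm. The pigment epithelium list of 8 genes was, like the rod list, highest in OIR-CIH replicate 1, at 0.51. Its summed level was 342 to 495 CPM in OIR-CIH and 213 to 395 CPM in OIR-Norm. Müller glia genes stood at 0.06, -0.16 and 0.15 and amacrine genes at -0.05, -0.03 and 0.27 in OIR-CIH. Horizontal and bipolar lists lay between -0.12 and 0.15 in every library. The lens list stood apart in OIR-Norm replicate 2, with 511 CPM in sum against 18 to 81 CPM in the other libraries. The part of these cells in the order of the ganglion cell markers was not tested.

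**Figure D4:**
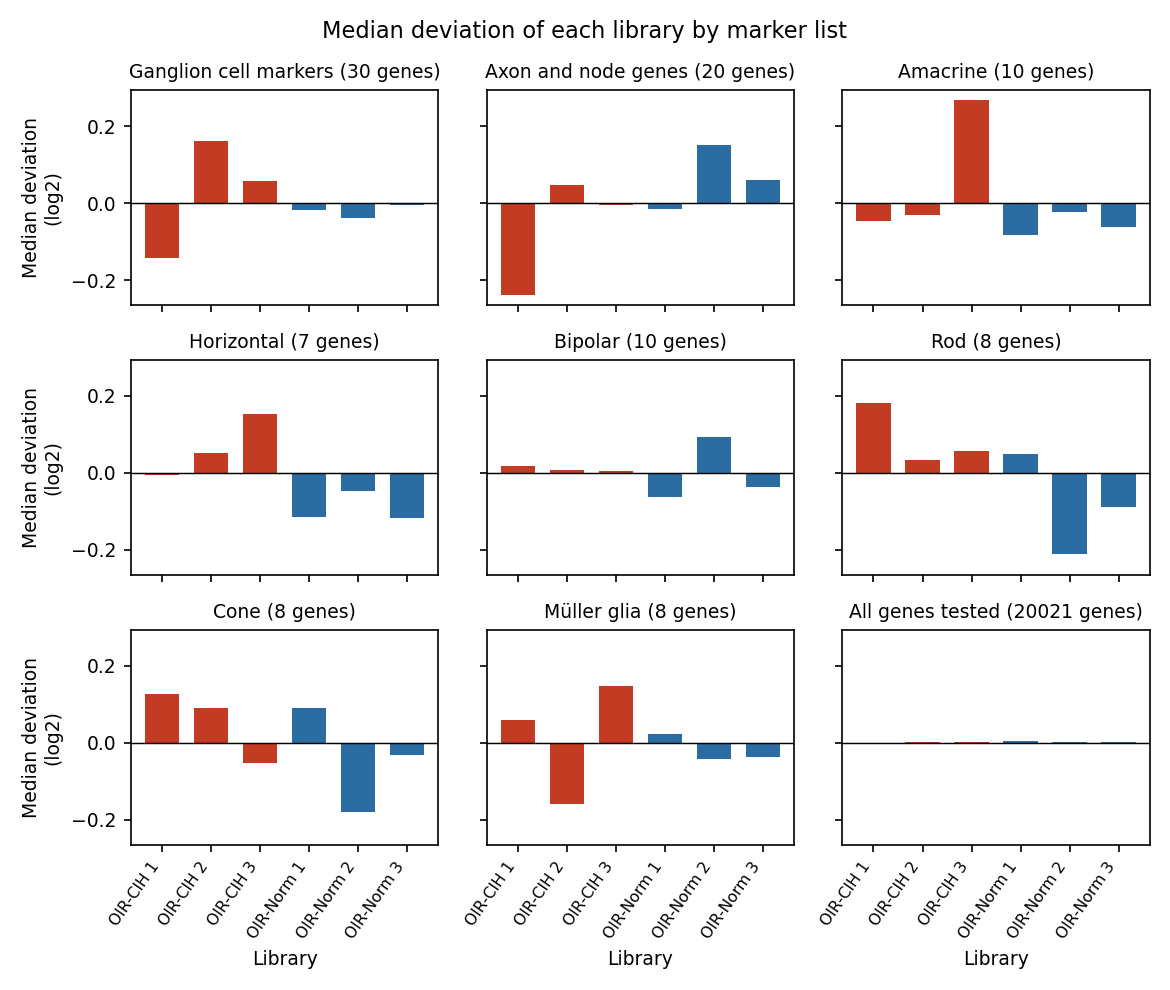
Median deviation (log2) of each library for the ganglion cell markers, the axon and node genes, 6 lists of other retinal cells and all genes tested, with OIR-CIH in red and OIR-Norm in blue. The ganglion cell markers stand at -0.14 and 0.16 in OIR-CIH replicates 1 and 2, the axon and node genes at -0.24 and 0.05, and the rod genes at 0.18 and 0.03. In OIR-Norm replicates 1 to 3 the rod genes stand at 0.05, -0.21 and -0.09.

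The groups were also compared for those lists, which were not fully separate. Isl1, a gene of the ganglion cell set, was also in the bipolar list, and Tfap2b was in both the amacrine and the horizontal list. Onecut1 was in the horizontal list and among the development regulators examined below. Of the markers of other neurons, 8 of 10 amacrine genes (median log2 fold change 0.16), 7 of 7 horizontal genes (0.19), 8 of 8 rod genes (0.14) and 5 of 10 bipolar genes (0.02) had a positive log2 fold change, and edgeR called 0. Without adjustment 1, 2, 2 and 2 of them in this order had a p under 0.05, and DESeq2 and limma-voom called 1, the rod factor Nr2e3. Medians of the cone (0.10), Müller glia (0.06), oligodendrocyte (0.05) and muscle (-0.02) lists were small, those of the pigment epithelium (0.28) and endothelial (-0.29) lists larger, and again 0 were called, also by DESeq2 and limma-voom. These 6 lists held 1, 2, 0, 0, 4 and 1 genes with an unadjusted p under 0.05, a level that 13.4% of all genes reached. The pigment epithelium list was split, with 4 genes higher and 4 lower and log2 fold changes from -0.88 to 0.80. In the endothelial list 1 gene was higher and 7 lower, and 6 of the 8 had their highest value in OIR-Norm replicate 2. In the astrocyte list (median -0.38) 3 of 6 genes were lower at an unadjusted p under 0.05, and Gfap, the glial intermediate filament, fell by 1.15 on the log2 scale (SE 0.10, edgeR adjusted p = 0.000187). In the microglia list (median -0.27) this held for 5 of 8 genes, and Mpeg1 fell by 0.71 (SE 0.11, edgeR adjusted p = 0.01235), a call that was lost without OIR-CIH replicate 1 or 2. In these lists limma-voom called the same genes, and DESeq2 called Cx3cr1 of the microglia list besides.

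Further genes of ganglion cell biology were examined in 4 lists. Of 39 tested genes that mark other ganglion cell subtypes, 15 had a higher and 24 a lower fitted level in OIR-CIH, and 2 were called, both lower, against 0.315% of all genes. Spp1, the gene of osteopontin, marks alpha ganglion cells and is also made by activated microglia. It was at 6.71, 7.77 and 7.28 CPM in OIR-CIH and at 13.0, 11.1 and 14.6 CPM in OIR-Norm. The groups were apart, and Spp1 fell by 0.83 on the log2 scale (SE 0.13, n = 3 per group; edgeR adjusted p = 0.0144), although the call was lost without OIR-CIH replicate 1 or 3. Slc7a11, the cystine transporter that also responds to oxidative stress in many cells, was at 7.89, 8.88 and 9.98 CPM in OIR-CIH and at 17.2, 18.6 and 13.0 CPM in OIR-Norm. It fell by 0.86 (SE 0.14, n = 3 per group; edgeR adjusted p = 0.0234), and this call was lost without OIR-CIH replicate 1 or 2, without OIR-Norm replicate 1 or 2 and with the replicate number as a block. The median over the 39 genes was -0.07, and the groups did not overlap for 8 of them, 20.5% against 18.4% of all genes. Without adjustment 10 of the 39 genes had a p under 0.05, 4 higher and 6 lower, against 13.4% of all genes. The microglia list, which moved in the same direction as Spp1, held 97.8 to 113 CPM in sum in OIR-CIH and 120 to 140 CPM in OIR-Norm, and its part in the value of Spp1 was not tested.

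Of 21 tested regulators of ganglion cell development 0 were called by edgeR, DESeq2 or limma-voom and 0 had an unadjusted p under 0.05, 8 stood higher and 13 lower, and the median log2 fold change was -0.03. Onecut1, a factor shared with horizontal cells, had the lowest p of them (log2 fold change 0.25 ± 0.13, SE, edgeR adjusted p = 0.426). Of 20 genes of the axon and its nodes of Ranvier 0 were called by any of these tools and 5 had an unadjusted p under 0.05, 5 stood higher and 15 lower, and the median was -0.11. The lowest p there was that of Prph, the intermediate filament peripherin, at 6.79, 8.11 and 8.89 CPM in OIR-CIH and 10.4, 10.3 and 12 CPM in OIR-Norm (log2 fold change -0.45 ± 0.13, SE, n = 3 per group; edgeR adjusted p = 0.213). This list too was lowest in OIR-CIH replicate 1, with 75.0% of its genes at their lowest there, and stood at -0.24, 0.05 and -0.01 in the OIR-CIH libraries. It was highest in OIR-Norm replicate 2, at 0.15. Within OIR-CIH, the order of the ganglion cell markers, with replicate 1 lowest and replicate 2 highest, was held by 10 of the 20 axon and node genes (50%), beside 25.6% of the other subtype genes and 23.8% of the development regulators. OIR-CIH replicate 2 was the highest of the 6 libraries for 15% of the axon and node genes, 17.9% of the subtype genes and 19% of the regulators. Of 19 tested genes of the response to neuronal and axon injury 0 were called by edgeR or limma-voom and 1 by DESeq2, 8 had an unadjusted p under 0.05, and 11 stood higher and 8 lower, with a median of 0.05. Over all genes tested, 13.4% had an unadjusted p under 0.05, the share to set beside the counts of these lists.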

How the data were processed

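The authors aligned reads of poly(A)-selected, strand-specific libraries (250 ng total RNA each) with STAR 2.7.9a and deposited raw counts per gene in 1 table, without normalization. The methods of the study name Ensembl 105 and the processing notes of the submitters GRCm38, and which strand was counted is not given in the sources used here. Symbols and exon lengths were taken from GENCODE M21 (GRCm38) by gene identifier, which named 32158 of 32285 genes.

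The counts were fitted in R 4.3.3 with edgeR 4.0.16 after TMM scaling (quasi-likelihood F test, OIR-CIH against OIR-Norm, no covariate) over the 20021 genes whose counts summed to at least 10. Adjusted p are Benjamini-Hochberg values over all of them. CPM are counts brought to a common library total after this scaling, and deviations used log2(CPM + 0.5). The fit was tested on simulated data with 200 changed genes. Alternatives were DESeq2 1.42.0, limma-voom (limma 3.58.1), other scalings and filters, a replicate block and leaving out each library. Figures were drawn with matplotlib.

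The 30 genes and all lists were chosen with earlier results of these data known. Values in all libraries are given for markers whose groups did not overlap or that had the lowest p or highest mean CPM of their role group. Of other lists, the called genes or the gene of lowest p are named. Genes outside this rule (the injury genes of the closing section) were chosen after their values were seen. No chi-square comparison found replicates as close as sampling noise. Protein sequences were not used here.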

Additional observations from a re-analysis of the deposited data

How the results depend on the processing

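In each of the 15 fits, 0 of the 30 ganglion cell markers were called, and at any fold change 0 reached an adjusted p under 0.05, the lowest being 0.136 (Jam2, DESeq2). Their median log2 fold change was between -0.0365 and 0.118 with single libraries left out, the lowest without OIR-CIH replicate 2 and the highest without OIR-CIH replicate 1, and 0.0145 when libraries were scaled by total count only. The sign was the same in every fit for 17 of the 30 genes, and for 11 of the other 13 it turned only when a library was left out. Nefl turned to -0.0235 with total count only and to -0.00328 with a filter of 1 CPM in 3 libraries, and lay between -0.086 and 0.0693 with libraries left out. The same ranges were -0.0535 to 0.117 for Rbpms, -0.113 to 0.0861 for Isl1, -0.0623 to 0.0705 for Satb1 and -0.0106 to 0.153 for Cartpt. None of these values was past a threshold, and the cause of the turns was not tested.

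DESeq2 called 135 genes of the whole table, 34 higher and 101 lower, against 63 by edgeR, and leaving out libraries gave between 29 (without OIR-CIH replicate 1) and 97 (without OIR-Norm replicate 3). Deviations of same-numbered libraries had correlations of mixed sign (0.162, 0.143 and -0.238 over 14800 genes). Whether these libraries share more than a number was not tested. A fit with a replicate block called 68 genes, of which 48 were shared with the 63, and the markers had a median of 0.0374 with 0 called. Depth limits Pou4f3, Tbr1, Irx3 and Adcyap1, each with fewer than 100 counts in a library, and with 3 libraries per group a single ratio cannot pass an exact test. Isl2, Foxp2, Tppp3, Opn4 and Adcyap1 have intervals that reach beyond 0.5.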

Other observations

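Of the genes of the response to neuronal and axon injury edgeR called 0 and DESeq2 1 (Ecel1), and the CPM of the groups did not overlap for 11 of 19, 57.9% against 18.4% of all genes tested, 7 higher and 4 lower in OIR-CIH. The genes named here were chosen after their values were seen, and the list was written with earlier results of these data known. Gadd45a, a gene induced by DNA damage and cell stress, had means of 38.4 CPM in OIR-CIH and 27.3 CPM in OIR-Norm (log2 fold change 0.49, edgeR adjusted p = 0.146). Trib3 and Ddit3, targets of the integrated stress response, had log2 fold changes of 0.47 (edgeR adjusted p = 0.233) and 0.21 (edgeR adjusted p = 0.319). Jun, a transcription factor induced by axon injury, stood at 0.26 (edgeR adjusted p = 0.228) and Bbc3, a pro-apoptotic member of the BCL2 family, at 0.34 (edgeR adjusted p = 0.272). Chac1 and Npy were the other genes apart and higher.

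The 4 genes apart and lower were Ecel1, Sarm1, Klf6 and Gal. Sarm1, which drives axon degeneration, had a log2 fold change of -0.22 (edgeR adjusted p = 0.286), Klf6 of -0.14 (edgeR adjusted p = 0.482) and the peptide gene Gal of -0.41 (edgeR adjusted p = 0.547). Atf3, an injury-induced factor like Jun, was at -0.30 (edgeR adjusted p = 0.373), with groups that overlapped. Ecel1, an endopeptidase gene that neurons induce after axon injury, was at 1.45, 1.63 and 1.75 CPM in OIR-CIH and 3.44, 2.7 and 3.17 CPM in OIR-Norm. The groups were apart, with a log2 fold change of -0.94 ± 0.20 (SE, n = 3 per group; edgeR adjusted p = 0.0919). DESeq2 called Ecel1 (adjusted p = 0.0223), and no other of the 15 fits did. Many of these genes are used by glia and other neurons too, so their values are those of the whole retina.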
